A study of Mus musculus with 6 samples.

Results

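Lipoprotein uptake, lysosomal lipolysis and cholesterol efflux were followed through 9 genes in macrophages sorted from mouse pancreatic tumours. The genes are Lpl, Apoe, Lipa, Npc1, Npc2, Soat1, Nr1h3, Abcg1 and Abca1, taken by symbol from a table of 53647 genes, and each symbol had 1 row. The tumours were pancreatic ductal adenocarcinomas grown orthotopically in C57BL/6 mice, and their macrophages were sorted by whether they expressed Cxcr4, a chemokine receptor that binds Cxcl12. There were 3 Cxcr4+ and 3 Cxcr4- libraries of total RNA, numbered 1 to 3 in each group. The labels list Cxcr4+ and Cxcr4- under genotype, but both groups came from the same kind of tumour in the same strain and differ by the sort. The tumour line, the age and sex of the mice, how many mice gave each library and the gate that defined a macrophage were not stated in the labels, so the p-values measure only the spread between these libraries, which may be technical. Levels below are FPKM, fragments scaled to transcript length and library size, so they can be compared between genes, and differences are Cxcr4+ minus Cxcr4-.

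Macrophages take up lipoproteins and dying cells and must dispose of the cholesterol these carry. Lipoprotein lipase (Lpl) acts outside the cell on lipoprotein triglyceride, while lysosomal acid lipase (Lipa) cleaves the cholesterol esters and triglycerides that reach the lysosome. The soluble protein Npc2 and the membrane protein Npc1 then hand free cholesterol out of the lysosome, and Soat1 in the endoplasmic reticulum esterifies it again for storage in lipid droplets. When sterols accumulate, oxysterols activate the liver X receptors, of which Nr1h3 encodes LXRalpha, and these induce the exporters Abca1 and Abcg1 and the lipid acceptor apolipoprotein E (Apoe). Lipid-laden foam cells of the arterial wall are the best known setting of this pathway.

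Upstream sequence is shown for Abca1, whose RNA was at the detection limit in these libraries, and for Apoe, whose groups stood apart. Whether the sequence bears on either value was not tested. The 250 bases upstream of their annotated starts are printed 5′ to 3′ in the direction of transcription, from RefSeq on build GRCm38.p6, with the matches to the motifs searched in capitals. Abca1 lies on the reverse strand at chr4:53159896-53160145 and Apoe, at the most upstream of its 3 listed starts, on the reverse strand at chr7:19699189-19699438.
Abca1: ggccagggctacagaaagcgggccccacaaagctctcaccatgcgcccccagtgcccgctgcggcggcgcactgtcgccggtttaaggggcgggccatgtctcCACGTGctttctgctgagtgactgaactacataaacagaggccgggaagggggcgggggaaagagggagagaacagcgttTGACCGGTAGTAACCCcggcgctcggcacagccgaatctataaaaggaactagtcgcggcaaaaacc
Apoe: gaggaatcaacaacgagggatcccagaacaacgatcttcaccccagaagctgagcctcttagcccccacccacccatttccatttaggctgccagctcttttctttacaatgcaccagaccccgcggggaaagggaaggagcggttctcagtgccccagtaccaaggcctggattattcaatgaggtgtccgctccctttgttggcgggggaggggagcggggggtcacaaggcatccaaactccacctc
The first capitals in Abca1 are an E-box, CACGTG, beginning at position -147 from the start, the core of elements bound by the lysosomal regulator TFEB among others. The second are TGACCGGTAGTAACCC, beginning at position -67, a match on the opposite strand to DR4, the liver X receptor element, which is AGGTCA repeated in the same direction with 4 free bases between the copies, and 3 of its 12 fixed letters differ. Up to 3 such mismatches were allowed on both strands, and 18.5% of 32851 promoters of the same length hold a match, so a match of this quality is frequent. The E-box is held by 6.02% of them and the sterol element TCACNCCAC, searched on both strands, by 1.05%. RefSeq entries were at hand for 6 of the 9 members, Abca1, Apoe, Lipa, Npc2, Nr1h3 and Soat1, with 9 promoters in all. Of these 9 promoters, 1 held the direct repeat and 1 the E-box, both that of Abca1, and 0 held the sterol element. Lpl, Abcg1 and Npc1 had no entry.

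The libraries held 46444934 to 55740671 estimated counts, each Cxcr4+ library more than any Cxcr4- library. Macrophage genes were abundant, with the lysosomal glycoprotein Cd68 at 1173 ± 72.0 FPKM (SD, n = 3) in Cxcr4+ and 1057 ± 45.1 in Cxcr4- libraries and Csf1r at 78.8 ± 13.6 and 80.1 ± 7.18. The scavenger receptor Cd163 had 0 counts in every library and the mannose receptor Mrc1 0 to 35. The libraries numbered 2 stood apart: on counts divided by 4, a pair of libraries differed by a chi-square over its degrees of freedom of 15.04 for this pair, 18.6 to 29.2 when 1 of them was set against a library of another number, and 10.6 to 16.1 otherwise. Fibroblast transcripts were highest in Cxcr4+ replicate 1, where 12 markers summed to 18.0 FPKM; the same sum was 3.62 in Cxcr4+ replicate 2, 4.37 in Cxcr4+ replicate 3 and 2.43 to 3.49 across the Cxcr4- replicates. Of the 10 fibroblast markers tested 9 were positive, where 50.1% of all tested genes were, with a median log2 fold change of 1.56. For 4 the groups did not overlap, all higher in Cxcr4+, beside 5.5% higher over all tested genes.

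The members covered a wide range of levels, and all 9 were kept by the filter on low counts. Npc2 stood highest at 109 ± 8.37 FPKM (SD, n = 6 libraries), at percentile 97.3 of the tested genes, followed by Lipa at 30.2 ± 1.75 and Soat1 at 19.2 ± 1.40. Each of these 3 lay above the next in 6 of 6 libraries, and their ranges did not meet. Lpl at 8.32 ± 1.44, Abcg1 at 7.71 ± 0.834 and Npc1 at 7.43 ± 0.492 FPKM formed a middle group whose ranges overlapped: Lpl was above Abcg1 in 4 libraries and Abcg1 above Npc1 in 4. Below them came Apoe at 4.10 ± 0.542, Nr1h3 at 0.895 ± 0.273 and Abca1 at 0.0258 ± 0.0231 FPKM, each again below its upper neighbour in 6 of 6 libraries. The lysosomal members Npc2 and Lipa thus stood far above the receptor Nr1h3 and the exporter Abca1, the latter at percentile 0.780 of the tested genes. In percent of the mean, the spread over 6 libraries was smallest for Lipa (5.78) and Npc1 (6.62) and largest for Nr1h3 (30.4) and Abca1 (89.6), the members with the fewest counts.

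**Figure D1:**
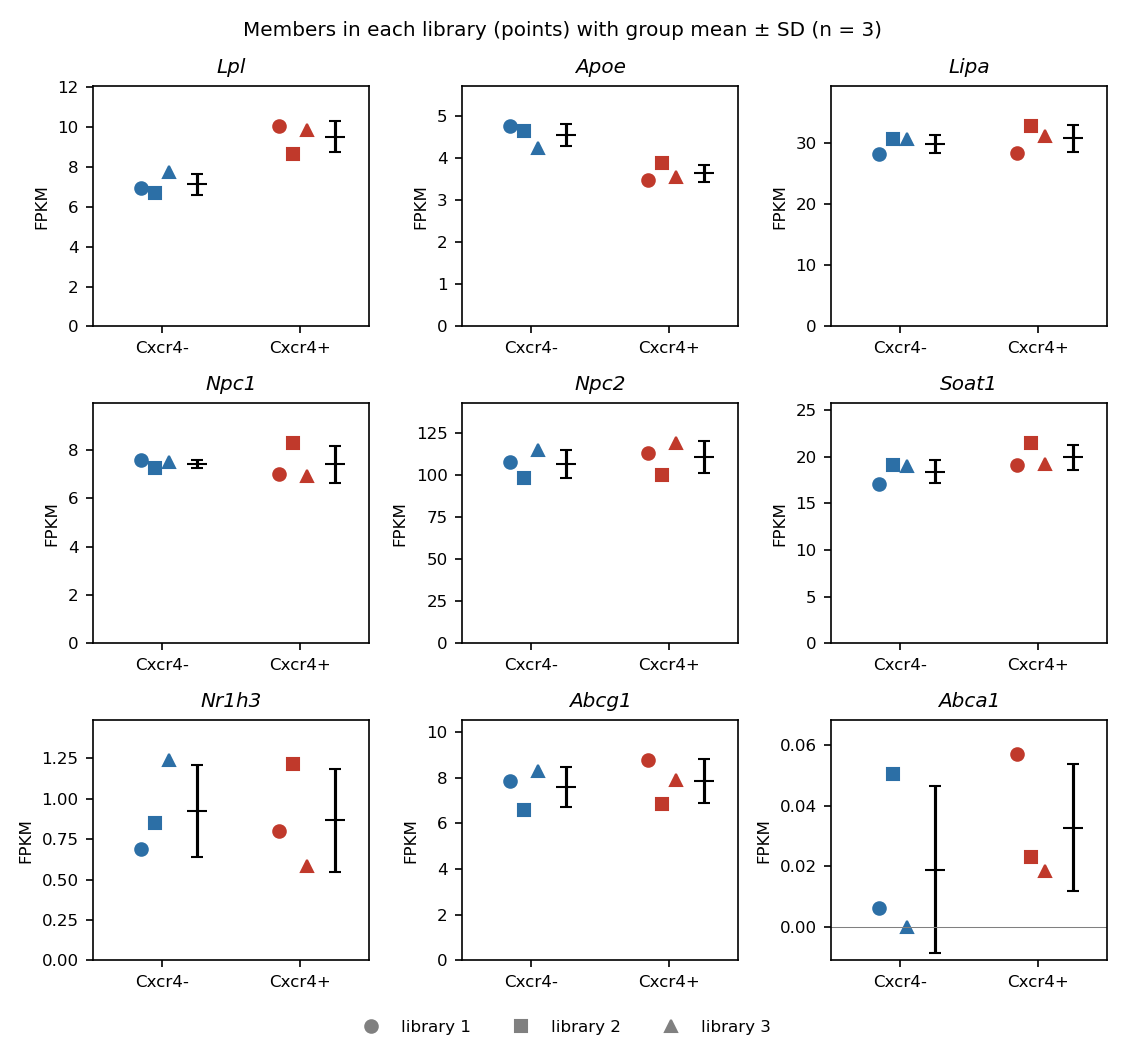
FPKM of each member in each library, in 9 panels that share no scale; points are libraries (circle 1, square 2, triangle 3), and the bars give the group mean ± SD (n = 3). The groups lie apart for Lpl, Apoe and Soat1, and Abca1 has a library at 0.

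No member passed the test between the sorted populations. In edgeR's quasi-likelihood test over 16031 genes, 0 of 9 members had an adjusted p under 0.05, where 0.0312% of all tested genes did (0.0125% higher and 0.0187% lower in Cxcr4+). At an unadjusted p under 0.05 there were 2 members, Lpl and Apoe, beside 4.85% of all tested genes. DESeq2 called 0 members, beside 0.3% of the genes it adjusted, and 1, Lpl, had an unadjusted p under 0.05 with it. The FPKM of the groups did not overlap for 3 members, higher in Cxcr4+ for Lpl and Soat1 and lower for Apoe, beside 10.4% of all tested genes (5.5% higher and 4.87% lower). An exact permutation test, two-sided, returned p = 0.1 for each of these 3, and 3 against 3 libraries cannot go lower. The median log2 fold change over the members was 0.042, with 6 positive and 3 negative, against 0.00041 over all tested genes, of which 50.1% were positive. Without Cxcr4- replicate 2 the members had 4 positive and 5 negative, with a median of -0.041, and every other fit without a library had 6 or 7 positive. These shares are a description, since the members were put forward with results of these data known.

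Lpl had the largest difference among members well above the detection limit. Its level was 10.1, 8.65 and 9.86 FPKM in Cxcr4+ replicates 1, 2 and 3 and 6.95, 6.70 and 7.74 in the Cxcr4- replicates. Every Cxcr4+ library lay above every Cxcr4- library, and in the Cxcr4+ group replicate 2 was the lowest. The means were 9.52 ± 0.759 and 7.13 ± 0.543 FPKM (SD, n = 3 each), a ratio of 1.34. The fitted log2 fold change was 0.41 (SE 0.12, 95% interval 0.13 to 0.70), with an adjusted p of 0.953 by edgeR. That interval covers this gene alone, without allowance for the number of genes tested. Lpl had 3919 to 6646 counts in a library, and what limited the precision of the estimate was not tested. Lpl is also abundant in adipocytes. Of 7 adipocyte markers, Adipoq, Cidec, Lep and Plin4 had 0 counts in every library. Plin1 had at most 3 counts, and Cfd had 22 in Cxcr4+ replicate 2. Retn was present throughout, at 84 to 191 counts. Summed over the 7 markers, Cxcr4+ libraries held 0.897 to 1.48 FPKM and Cxcr4- libraries 1.2005 to 2.12. Most of this was Retn, whose mean was 1.13 FPKM for Cxcr4+ against 1.60 for Cxcr4- (log2 fold change -0.51, SE 0.31). Whether adipocyte RNA had a part in the Lpl value was not tested. When Cxcr4+ replicate 1, where fibroblast transcripts were highest, was left out, the log2 fold change of Lpl was 0.36 (adjusted p = 0.998 by edgeR). The summed fibroblast level of both remaining Cxcr4+ libraries was still above that of every Cxcr4- library, and its part in the Lpl value was not tested. In bulk RNA such as this, fewer cells that express a gene and less RNA per cell cannot be told apart. Lpl spans bases 69333143 to 69359586 of chromosome 8, forward strand, on GRCm39, which the expression table uses for every coordinate given below.

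Apoe went the other way. Its level was 3.49, 3.87 and 3.56 FPKM in the Cxcr4+ replicates and 4.76, 4.64 and 4.25 in the Cxcr4- replicates. The groups did not meet, with the highest Cxcr4+ value in replicate 2 and the lowest Cxcr4- value in replicate 3. The means were 3.64 ± 0.206 and 4.55 ± 0.267 FPKM (SD, n = 3 each), a ratio of 0.800. The fitted log2 fold change was -0.33 (SE 0.13, 95% interval -0.63 to -0.027), with an adjusted p of 0.998 by edgeR. Apoe had 451 to 580 counts in a library, far fewer than Lpl. Ductal and tumour epithelial markers were also lower in Cxcr4+ libraries, with a summed level over 12 genes of 1.84 to 3.38 against 3.60 to 6.34 FPKM. All 8 tested genes were negative, where 50.1% of all tested genes were positive, and 2, Tff1 and Tff2, had 0 counts. The part of these markers in the Apoe value was not tested. Apoe spans bases 19430034 to 19433113 of chromosome 7, reverse strand.

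Within a library, where the scaling between libraries cancels, the level of Lpl over that of Apoe was 2.88, 2.23 and 2.77 in the Cxcr4+ and 1.46, 1.44 and 1.82 in the Cxcr4- replicates. The means of this ratio were 2.63 ± 0.347 and 1.57 ± 0.213 (SD, n = 3 each). The groups stood apart, but the ratio was formed after both genes had been seen to differ and adds no independent evidence.

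The genes whose profiles over the 6 libraries lay closest to these members were found by the root mean square difference of log2 CPM (counts scaled to library size), centred on each gene's mean, among 11123 genes whose mean reached 1 FPKM. For Apoe they were Bcat2, the mitochondrial aminotransferase for branched-chain amino acids, Hook2, a microtubule linker protein, and the pseudogene Eif1-ps1, at 0.0329, 0.0342 and 0.0473 log2 units. Eif1-ps1 can share reads with Eif1, so its value is uncertain. For Lpl they were the phosphatase Phospho1, the type I interferon receptor subunit Ifnar1 and the mitotic kinesin Kif15, at 0.0540, 0.0566 and 0.0570. None of these 6 genes passed the edgeR test. Ifnar1, for one, had 8.03 ± 0.751 FPKM in Cxcr4+ and 5.66 ± 0.482 in Cxcr4- libraries (log2 fold change 0.50, adjusted p = 0.953 by edgeR). All 6 were picked for closeness to a member over the same libraries, so their direction between the groups follows from that choice. Whether they share any control with Apoe or Lpl was not tested.

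**Figure D2:**
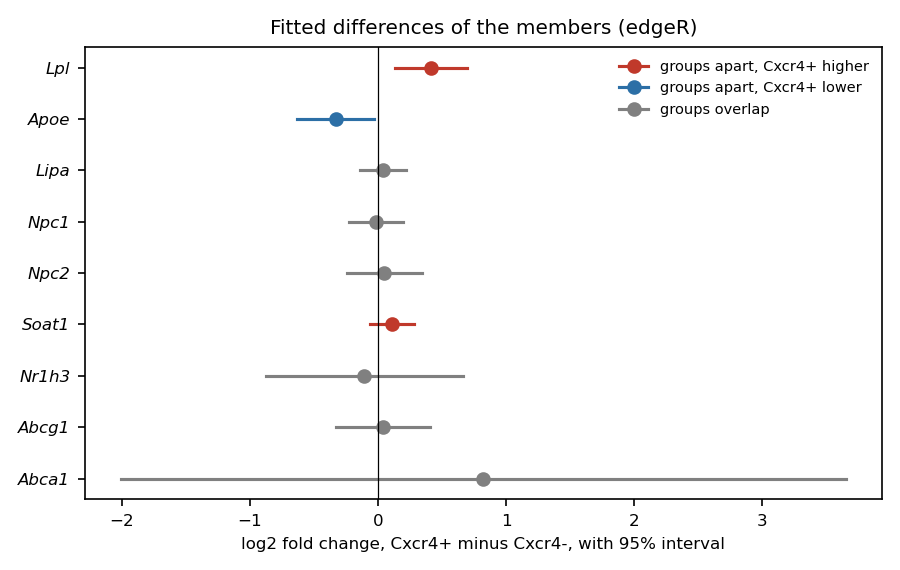
Fitted log2 fold change of each member, Cxcr4+ minus Cxcr4-, with its 95% interval from edgeR (n = 3 libraries per group); colour gives whether the FPKM of the groups overlap. The intervals of Lpl and Apoe lie on either side of 0, those of Lipa, Npc1, Npc2, Soat1, Nr1h3 and Abcg1 hold 0, and that of Abca1 runs from -2.01 to 3.65.

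The lysosomal members had small fitted differences between the groups, and their values overlapped. Lipa had 28.4, 32.7 and 31.0 FPKM in the Cxcr4+ and 28.1, 30.7 and 30.6 in the Cxcr4- replicates, so that the groups overlapped and replicate 1 was the lowest in both. Its log2 fold change was 0.037 (SE 0.077), with a 95% interval of -0.14 to 0.22 and 10805 to 13019 counts in a library. Npc1 had 7.01, 8.29 and 6.95 FPKM in the Cxcr4+ and 7.58, 7.26 and 7.5002 in the Cxcr4- replicates, with the Cxcr4- values inside the Cxcr4+ range. Its log2 fold change was -0.017 (SE 0.090, 95% interval -0.23 to 0.19). The end of Npc1 overlaps that of Rmc1, which lies on the opposite strand at 5.65 and 5.59 FPKM, and no source used here says whether the counting used strand.

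Npc2, the most abundant member, had 113, 99.995 and 119 FPKM in the Cxcr4+ and 107, 97.9 and 115 in the Cxcr4- replicates. The order of the replicates was the same in both groups, with replicate 2 lowest and replicate 3 highest, and the groups overlapped. Its log2 fold change was 0.048 (SE 0.13, 95% interval -0.25 to 0.34). Npc2 was 16.1, 12.1 and 17.1 times the level of its partner Npc1 in the Cxcr4+ replicates and 14.2, 13.5 and 15.3 times in the Cxcr4- replicates, and these ratios overlapped too. Misses of the threshold do not show that Lipa, Npc1 and Npc2 were equal between the groups. The intervals do leave out a difference of 0.5 in log2 units in either direction for each of the 3, taking 1 gene at a time.

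Soat1, the enzyme that re-esterifies the released cholesterol, was slightly higher in Cxcr4+ libraries. It had 19.2, 21.5 and 19.2 FPKM there and 17.0, 19.1 and 19.0 in the Cxcr4- replicates. The groups did not overlap, but only narrowly: Cxcr4+ replicate 1 was at 19.15 and Cxcr4- replicate 2 at 19.135. The means were 19.9 ± 1.31 and 18.4 ± 1.19 FPKM (SD, n = 3 each), and the log2 fold change was 0.11 (SE 0.075, 95% interval -0.065 to 0.28), with an adjusted p of 0.999 by edgeR. The level of Soat1 over that of Lipa, 0.675, 0.656 and 0.619 in the Cxcr4+ and 0.607, 0.624 and 0.622 in the Cxcr4- replicates, overlapped between the groups. Soat1 lies on chromosome 1 at 156252095 to 156301901, Lipa on chromosome 19 at 34469718 to 34504874 and Npc2 on chromosome 12 at 84801336 to 84819926, all on the reverse strand, and Npc1 lies on chromosome 18.

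Of the receptor and its exporters, only Abcg1 had a sizeable level. Abcg1, which passes cholesterol to high-density lipoprotein, had 8.78, 6.85 and 7.90 FPKM in the Cxcr4+ and 7.87, 6.61 and 8.29 in the Cxcr4- replicates. Replicate 2 was the lowest in both groups, and the groups overlapped. The log2 fold change was 0.042 (SE 0.16, 95% interval -0.33 to 0.41). Abcg1 spans bases 31276649 to 31336962 of chromosome 17, forward strand.

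Nr1h3 had 0.803, 1.21 and 0.582 FPKM in the Cxcr4+ and 0.688, 0.848 and 1.24 in the Cxcr4- replicates. The highest value of each group was about that of the other, and the groups overlapped along most of their range. The log2 fold change was -0.11 (SE 0.33, 95% interval -0.87 to 0.66), on 90 to 181 counts in a library, so that a difference of 0.5 in log2 units in either direction lay within the interval and was not detectable at this depth and spread. The predicted gene Gm13783 lies within Nr1h3 (chromosome 2, 91014406 to 91033179, reverse strand) on the same strand, with up to 49 counts in a library, and reads could be split between them. The second liver X receptor, Nr1h2, which encodes LXRbeta, stood much higher than Nr1h3, at 10.8 ± 0.555 and 10.8 ± 0.508 FPKM (SD, n = 3 each).

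Abca1, which loads lipid onto apolipoprotein A-I, was close to absent from the RNA. It had 38, 14 and 12 counts in the Cxcr4+ and 4, 30 and 0 in the Cxcr4- replicates. Of counts from 1 to 20, 43.2% were multiples of 4. The floor for a library was set by choice at 12 counts, taken as 3 fragments of 4 counts each. At or under that floor were 3 of the 6 libraries. The data therefore give no usable fold. The fitted log2 fold change of 0.82 (SE 1.21) ran from 0.020 to 3.16 over the alternatives. It depends on the constant added to FPKM, with 0.020 for log2(FPKM + 1) and 0.17 for log2(FPKM + 0.1). It also depends on the libraries and terms in the fit, with 1.81 with the replicate number as a block. The 3.16 came without Cxcr4- replicate 2. Abca1 spans chromosome 4 from 53030787 to 53159895 on the reverse strand. The low counts, beside an abundant Abcg1, mean that these libraries say nothing on a difference in Abca1 between the groups.

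**Figure D3:**
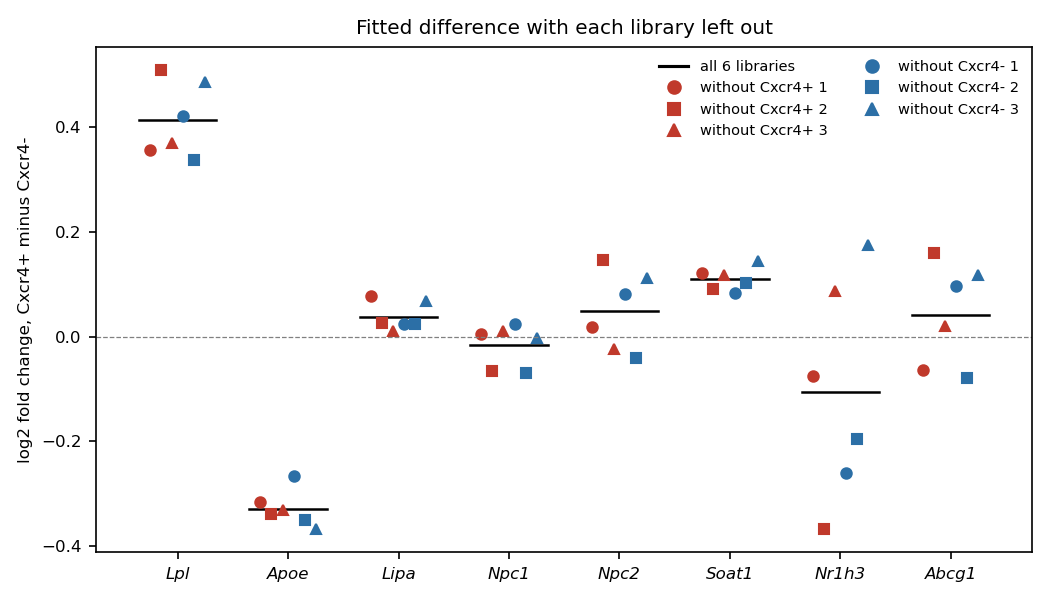
Fitted log2 fold change of 8 members (Abca1 is left out for its few counts) with all 6 libraries (line) and with each library left out (points; red for a Cxcr4+ and blue for a Cxcr4- library). Lpl stays between 0.34 and 0.51 and Apoe between -0.37 and -0.27, while Npc1, Npc2, Nr1h3 and Abcg1 cross 0.

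The other genes of the pathway were read in 8 lists by role, 93 genes in all with each counted once, of which 74 were tested. The edgeR test called 0 of them in either direction, and 6 had an unadjusted p under 0.05, beside 4.85% of all tested genes. Their median log2 fold change was -0.011, with 30 positive and 44 negative, where 50.1% of all tested genes were positive. The FPKM of the groups did not overlap for 8 higher and 6 lower genes, beside 5.5% higher and 4.87% lower over all tested genes.

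Among 11 lipoprotein receptors and their helpers 9 were tested, 0 passed in either direction, and 2 were positive and 7 negative with a median of -0.035. The most abundant were Lrp1, a broad endocytic receptor that also takes up Apoe, at 37.7 ± 4.59 against 40.9 ± 6.10 FPKM, the scavenger receptor Msr1 at 32.1 ± 1.59 against 25.1 ± 0.442, and the sorting receptor Sorl1 at 17.3 ± 1.80 against 21.3 ± 1.13 (SD, n = 3 each). Msr1 and Sorl1 did not overlap between the groups, in opposite directions, with log2 fold changes of 0.35 and -0.31. The positive genes were Msr1 and Cd36, which both take up oxidised lipoprotein. Cd36 had 22.0, 13.7 and 18.0 FPKM in the Cxcr4+ and 10.2, 7.73 and 10.3 in the Cxcr4- replicates, a log2 fold change of 0.92 (SE 0.22, adjusted p = 0.907 by edgeR). DESeq2 called Cd36, with an adjusted p of 0.00973. Cd36 is named for that call, after its values were seen. Vldlr and Olr1 were not tested, with at most 24 and 12 counts in a library.

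Of 12 genes that mature or control Lpl 7 were tested and 0 passed, with 3 positive, 4 negative and a median of -0.011. The most abundant were the protease Furin at 13.9 ± 0.654 against 15.7 ± 1.97 FPKM, Sel1l of the endoplasmic reticulum at 10.6 ± 1.34 against 9.82 ± 1.72, and the lipase maturation factor Lmf2 at 5.44 ± 0.920 against 5.85 ± 1.06. Gpihbp1, the endothelial anchor of Lpl, had at most 4 counts in a library. Of 10 apolipoprotein and high-density lipoprotein genes 6 were tested and 0 passed, 3 in each direction. The most abundant of this list was the phospholipid transfer protein Pltp with 3.34 ± 0.868 against 3.25 ± 1.05 FPKM, then Apoa2 with 2.02 ± 0.568 against 3.14 ± 1.17 and the chaperone Clu with 1.49 ± 0.486 against 1.38 ± 0.562. Apoc2, the activator of Lpl and a gene neighbour of Apoe, was read with the genes that control Lpl and had 4.65 ± 0.375 against 4.68 ± 0.370 FPKM (log2 fold change -0.011, SE 0.18), while Apoc1, of the same cluster, had at most 5 counts. The groups overlapped for Apoc2 and not for Apoe, and the difference between the pair was not tested.

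Lysosomal lipid handling was the most abundant list. Of its 18 tested genes 0 passed, with 11 positive, 7 negative and a median of 0.011. The sphingolipid activator precursor Psap had 564 ± 30.4 against 548 ± 20.6 FPKM, the membrane protein Lamp1 519 ± 4.96 against 487 ± 5.18, and the hexosaminidase subunit Hexa 363 ± 11.1 against 343 ± 3.58. Lamp1 and Hexa did not overlap between the groups, at log2 fold changes of 0.086 and 0.078. Of 6 tested genes of ester storage and neutral hydrolysis 0 passed, with 2 positive and 4 negative. The droplet coat protein Plin2 had 223 ± 13.5 against 237 ± 20.03 FPKM. The triglyceride lipase Pnpla2 had 50.7, 56.6 and 53.5 FPKM in the Cxcr4+ and 74.3, 74.6 and 73.0 in the Cxcr4- replicates, with a log2 fold change of -0.47 (SE 0.08, adjusted p = 0.3497 by edgeR and 0.00658 by DESeq2). The cholesterol ester hydrolase Nceh1 had 11.6 ± 0.148 against 10.4 ± 0.194 FPKM and did not overlap.

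Among sterol exporters and oxysterol genes 10 were tested and 0 passed, with 4 positive and 6 negative. The sterol transfer protein Gramd1a had 30.0 ± 7.63 against 33.3 ± 1.23 FPKM, the oxysterol-binding protein Osbp 15.2 ± 0.728 against 15.2 ± 0.0600, and Abca7, a relative of Abca1, 11.9 ± 0.951 against 14.1 ± 0.511. Abca7 did not overlap between the groups (log2 fold change -0.25, SE 0.09), and it stood far above Abca1. The partners of the liver X receptors and related receptors had 0 of 8 tested genes passing and all 8 log2 fold changes negative, from -0.19 to -0.0022 with a median of -0.12, and their groups overlapped in every case. The signs were not steady: 1 of the 8 was positive with library totals alone and in each fit without a library, and 2 of the 8 in both limma-trend fits. Among the most abundant were Rxrb, a heterodimer partner, at 18.3 ± 0.391 against 19.7 ± 1.10 FPKM, and Nr1h2, given above. Pparg, which drives Cd36 and Nr1h3 in other macrophages, had at most 13 counts in a library.

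Of 12 tested other targets of the liver X receptors 0 passed, with 6 positive and 6 negative. The FPKM of the groups did not overlap for 3 of them, all lower in Cxcr4+, beside 4.87% lower over all tested genes. The desaturase Scd2 had 16.9, 18.2 and 77.6 FPKM in the Cxcr4+ and 78.0, 77.9 and 82.1 in the Cxcr4- replicates. Cxcr4+ replicates 1 and 2 thus stood far below all other libraries, and Cxcr4+ replicate 3 was close to the Cxcr4- libraries. With all libraries the fitted value was -1.07 on the log2 scale (SE 0.57, adjusted p = 0.999 by edgeR), and it was -2.21 (adjusted p = 0.00699) without Cxcr4+ replicate 3. Fatty acid synthase Fasn had 15.5 ± 2.76 against 17.0 ± 1.89 FPKM and Srebf1, the lipogenic regulator, 7.44 ± 0.464 against 8.60 ± 0.588, with groups that did not overlap (log2 fold change -0.22, SE 0.10). The Scd2 pattern, with Cxcr4+ replicates 1 and 2 below the other 4 libraries together, was not seen in Abcg1, Nr1h3 or Apoe. Abca1 had too few counts to be read for it. Apoe, like Srebf1, had groups that did not overlap, lower in Cxcr4+.

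**Figure D4:**
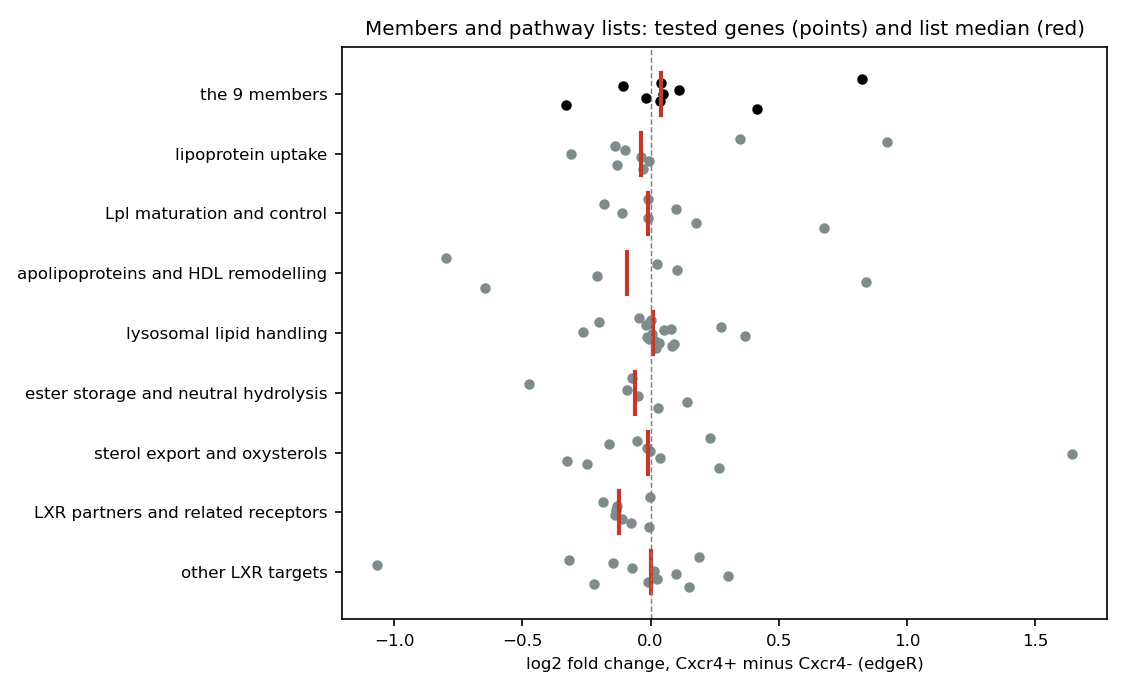
Log2 fold changes, Cxcr4+ minus Cxcr4-, of the 9 members and of the tested genes of each pathway list (points), with each list's median (red) and the median over all tested genes (dashed line). The medians lie between -0.12 and 0.042; the lowest point is Scd2 at -1.07 and the highest Cyp7b1, with at most 26 counts in a library, at 1.64.

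The KEGG terms below were looked at after the values were seen. In the deposited annotation 7 of the 9 members, all but Abcg1 and Nr1h3, carry the KEGG term for cholesterol metabolism. Of the 35 tested genes with that term 0 passed in edgeR's test, 4 had an unadjusted p under 0.05, beside 4.85% of all tested genes, and the median log2 fold change was 0.028 with 20 positive and 15 negative. Lipa, Npc1 and Npc2 share the lysosome term, whose 115 tested genes had a median of 0.033 and 0 calls, with 74 positive and 41 negative. The FPKM of the groups did not overlap for 15 higher and 2 lower of them, beside 5.5% higher and 4.87% lower over all tested genes. Whether the term as a whole differs between the groups was not tested. The members lie on 9 different chromosomes, so none neighbours another.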

How the data were processed

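Transcript levels were measured in 6 libraries, 3 of Cxcr4+ and 3 of Cxcr4- macrophages, grouped by their titles. The submitters' processing notes name the tools cutadapt, HISAT2 and StringTie and the build GRCm39; for their versions, the annotation release and the use of strand, nothing is given in the sources used here. A single table deposited by the authors held the estimated counts, already whole numbers (rounding changed 0 values), and FPKM values, scaled by them to transcript length and library size; where the count was 0 the constant FPKM was read as 0. Of counts from 1 to 20, 43.2% were multiples of 4.

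The fit used edgeR 4.0.16 under R 4.3.3 (quasi-likelihood test, earlier dispersion method, TMM, filterByExpr with minimum count 10 and total 15, group as the sole term), with Benjamini-Hochberg adjustment over 16031 genes. The filter removed 0.0408 to 0.0581% of a library's counts. SE is the size of the log2 fold change over the square root of F. Simulated counts with known changes were used to test it. Alternatives were DESeq2 1.42.0, limma 3.58.1 on log2(FPKM + 1) and log2(FPKM + 0.1), other scalings and filters, counts divided by 4, a replicate block and leaving out each library; the libraries numbered 2 as a block and the exact test on log scales were chosen after seeing the data. The members, lists and markers were chosen with earlier results of these data known. Named genes are the members, the 3 most abundant tested genes of each pathway list and any that passed, of which 1 is not reported here; others are named for an extreme value or a role and were chosen after their values were seen. Figures were drawn with matplotlib 3.10.9.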

Additional observations from a re-analysis of the deposited data

How the results depend on the processing

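Over 11 alternatives and 6 fits without a library, 0 members were called, with 1 or 2 at an unadjusted p under 0.05 in each; Lpl and Apoe kept their direction in all, with adjusted p from 0.201 for Lpl and 0.488 for Apoe, both lowest with the libraries numbered 2 as a block. Leaving out 1 library gave 0.34 to 0.51 for Lpl, -0.37 to -0.27 for Apoe, -0.079 to 0.16 for Abcg1, -0.37 to 0.17 for Nr1h3, -0.069 to 0.025 for Npc1 and -0.041 to 0.15 for Npc2, so that the last 4 changed sign; the cause was not tested. The 5 genes called over the whole table became 53 with DESeq2, 2 with limma-trend on log2(FPKM + 1) and 1 to 9 with 1 library left out (9 without Cxcr4+ replicate 2, and 1 on leaving out any of Cxcr4+ replicates 1 and 3 and Cxcr4- replicate 1). Pathway genes called went from 0 to 2, Cd36 and Pnpla2, with DESeq2, and to 0 to 1 with a library left out, the 1 being Scd2 without Cxcr4+ replicate 3.

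With the replicate number as a block edgeR called 0 genes, 1495 having an unadjusted p under 0.05, and 0 members or pathway genes. Deviations from the group mean correlated across genes at 0.0383, 0.141 and 0.0451 between libraries 1, 2 and 3 of the 2 groups, and not every library correlated best with its own number, so the labels' numbers were not taken as pairs. Abca1 was not tested with counts divided by 4, nor Abca1 and Nr1h3 at a mean of at least 1 FPKM, and depth limits both. Floors cover counting error only.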

Other observations

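In some genes of the pathway lists a single library stood apart, and the examples here were chosen after their values were seen. Gramd1b, a sterol transfer protein of the endoplasmic reticulum, had 16.7 FPKM in Cxcr4- replicate 1 and 5.96 to 10.9 in the other libraries. Asah1, the lysosomal acid ceramidase, had 9.74 FPKM in the same library and 15.04 to 19.8 in the others.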
